A study of Mus musculus with 8 samples.

Results

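The IGHV3 genes, the VH36-60 family of the mouse heavy-chain locus, were taken as every segment whose name begins with IGHV3- in the per-segment read counts of the 8 samples. The rule found 8 of the 159 VH genes with reads. IGHV3-1, IGHV3-3, IGHV3-4, IGHV3-5, IGHV3-6 and IGHV3-8 are annotated as IG V genes, and IGHV3-2 and IGHV3-7 are annotated as pseudogenes. Assembled heavy chains were added where every V gene listed for the contig was an IGHV3 gene, which gave 51 of the 2867 complete clonotypes whose listed V genes belonged to a single family and of the 3882 complete clonotypes in all. A clonotype here is 1 assembled contig with a complete CDR3, and contigs were not merged by sequence. The 51 IGHV3 clonotypes had 51 distinct CDR3 nucleotide sequences.

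Poly-A RNA was sequenced in 75-base single-end reads from untreated primary pro-B cells of 8-week-old mice, sorted from bone marrow as B220+Cd43+IgM-CD25-. Of the 8 samples, 4 were controls and 4 were Setd2 knockouts, and all carried the same seqbatch label. The sources used here do not give the Cre line or promoter behind the deletion, the genotype of the controls or the number of animals per sample, so each p-value reflects the spread among these libraries alone, part of which can be technical. Setd2 transcripts and the transcripts of the sorted surface markers were not analysed here.

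A heavy chain is made when a VH segment is joined to a D and a JH segment in pro-B cells, and the junction of the 3 forms the CDR3, the most variable part of the antigen-binding site. Each VH segment carries its own promoter and recombination signal, and VH families are groups of segments of similar sequence. Setd2 encodes the enzyme that places trimethylation on lysine 36 of histone H3 in transcribed genes. The comparison asks whether IGHV3 segments were used differently in pro-B cells without Setd2.

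The germline sequences show how alike the members are and where a short read can separate them. The 8 genes lie on chromosome 12 within 358 kb, on the minus strand of GRCm38 (mm10), between 482.2 kb (IGHV3-1) and 840.2 kb (IGHV3-8) from IGHD1-1, the D segment nearest to the VH genes. On the D-proximal side of IGHV3-1 lay 30 VH genes with reads, and 106 lay beyond IGHV3-8. For each V exon 75 bases, 1 read length, are printed 5′ to 3′ from the GENCODE M21 transcripts. They end in the first codons of the CDR3, at the same codon in each gene, which in some members is just short of the exon end. Capitals mark bases that differ from IGHV3-6.
IGHV3-1, chr12:113964390-113964464: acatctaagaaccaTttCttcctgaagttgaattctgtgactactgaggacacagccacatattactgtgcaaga
IGHV3-2, chr12:114033805-114033879: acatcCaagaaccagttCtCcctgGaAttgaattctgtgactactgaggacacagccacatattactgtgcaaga
IGHV3-3, chr12:114196441-114196515: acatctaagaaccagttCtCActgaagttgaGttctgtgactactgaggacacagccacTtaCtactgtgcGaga
IGHV3-4, chr12:114253619-114253693: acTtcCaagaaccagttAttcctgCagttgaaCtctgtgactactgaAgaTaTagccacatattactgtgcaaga
IGHV3-5, chr12:114262654-114262728: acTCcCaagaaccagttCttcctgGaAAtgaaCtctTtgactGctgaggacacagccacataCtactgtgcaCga
IGHV3-6, chr12:114288154-114288228: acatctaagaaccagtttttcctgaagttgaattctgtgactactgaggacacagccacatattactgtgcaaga
IGHV3-7, chr12:114314186-114314260: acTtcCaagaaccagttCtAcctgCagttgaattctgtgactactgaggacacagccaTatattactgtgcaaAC
IGHV3-8, chr12:114322376-114322450: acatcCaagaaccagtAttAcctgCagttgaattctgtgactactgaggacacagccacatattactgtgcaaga

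Over the V region up to that codon, IGHV3-1 was 93.2% and IGHV3-2 was 92.9% identical to IGHV3-6. IGHV3-8 was 88.8%, IGHV3-7 was 88.4%, IGHV3-4 was 86.2%, IGHV3-3 was 85.0% and IGHV3-5 was 84.2% identical to it. No 75-base window of any member was found unchanged in another member, so a full-length germline read inside a V region differs by at least 1 base between members. Reads across the junction carry less of the V segment. Upstream of the conserved cysteine codon of the CDR3, IGHV3-6 matched IGHV3-1 base for base over 48 bases, IGHV3-8 over 41 bases and IGHV3-2 over 39 bases, but IGHV3-3 and IGHV3-5 over 3 bases. The sources used here do not say how reads were divided between close members, so the values of IGHV3-1, IGHV3-2 and IGHV3-6 are uncertain to that extent. The V region of IGHV3-6, the member with the most reads, is printed next over 294 of its 296 bases, up to the same codon. Capitals mark the 20 bases where IGHV3-1 differs.
IGHV3-6, chr12:114288154-114288447, minus strand: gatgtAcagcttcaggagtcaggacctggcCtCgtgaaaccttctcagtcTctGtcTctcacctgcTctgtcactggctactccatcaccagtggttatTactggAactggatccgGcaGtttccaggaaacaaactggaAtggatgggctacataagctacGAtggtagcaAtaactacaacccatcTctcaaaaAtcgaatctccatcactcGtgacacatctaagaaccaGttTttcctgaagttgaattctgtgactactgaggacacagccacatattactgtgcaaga

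The libraries differed in depth and in the other B-lineage transcripts they held. Reads on VH genes numbered 35505 to 53071 in controls and 1637 to 56542 in knockouts, with knockout 3 the shallowest sample. A count of 0 there allows up to 0.183% of VH reads (3 reads), against 0.00531% to 0.0134% in the other 7 samples. The most read VH gene took 4.33% to 7.13% of VH reads in controls and 6.35% to 27.6% in knockouts. Reads were counted on 9 constant-region genes, of which IGHD and the switched genes were taken as markers of later B-lineage cells. Of these 9, 8 had reads in every sample and IGHG2A was at 0. The switched constant genes took 51.0% to 57.6% of constant-region reads in controls and 6.69% to 44.2% in knockouts, and IGHM took 41.4% to 48.0% and 55.4% to 92.7%. The switched and IGHM shares did not overlap between the genotypes, the share of the most read VH gene overlapped only through knockout 3, and their part in the results below was not tested. In bulk RNA, fewer cells that use a segment and less RNA per cell cannot be told apart.

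The IGHV3 family as a whole did not separate the genotypes. In controls 1 to 4 it took 5.36%, 4.49%, 5.50% and 4.94% of VH reads, from 2093, 2382, 1952 and 2233 reads. In knockouts 1 to 4 it took 2.71%, 9.11%, 3.85% and 1.26%, from 693, 2038, 63 and 710 reads. The controls lay close together, while knockout 2 lay above every control and knockouts 1, 3 and 4 lay below every control. The means were 5.07% ± 0.456 and 4.23% ± 3.42 (SD, n = 4 each), a difference of -0.839 percentage points (two-sided exact permutation test, p = 0.686). The difference was -2.46 percentage points with knockout 2 left out (exact permutation p = 0.0286) and 0.154 with knockout 4 left out (exact permutation p = 0.971), so the direction rested on single knockout samples. By mean share IGHV3 ranked 4th of 15 VH families in controls and 5th in knockouts.

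Within the family, IGHV3-6 carried most reads in every sample and a larger part of them in each knockout. IGHV3-6 took 71.3%, 75.7%, 65.6% and 82.6% of IGHV3 reads in controls 1 to 4. In knockouts 1 to 4 it took 96.8%, 97.8%, 85.7% and 96.6%. Every knockout was above every control, with the smallest gap between control 4 and knockout 3. Knockout 3 rests on 54 of 63 reads, and its 95% Wilson interval of 75.0% to 92.3% overlapped that of control 4, 81.0% to 84.1%. These intervals cover counting error only, since reads without molecular identifiers are not independent molecules.

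The means were 73.8% ± 7.16 and 94.3% ± 5.72 (SD, n = 4 each), a difference of 20.5 percentage points. The two-sided exact permutation test gave p = 0.0286, the smallest that 4 against 4 allows, and 0.0857 after Benjamini-Hochberg adjustment over the 6 readouts of the family tested. Leaving out 1 sample at a time, over 35 arrangements, gave 17.7 to 23.4 percentage points. The exact permutation p was then 0.0571 without control 1, control 3, knockout 1, knockout 2 or knockout 4, and 0.0286 without any of the others. With the shallow knockout 3 left out, the difference was 23.3. On the log2 scale the ratio of IGHV3-6 reads to other IGHV3 reads, with 0.5 added to both, was 2.90 higher in knockouts.

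**Figure D1:**
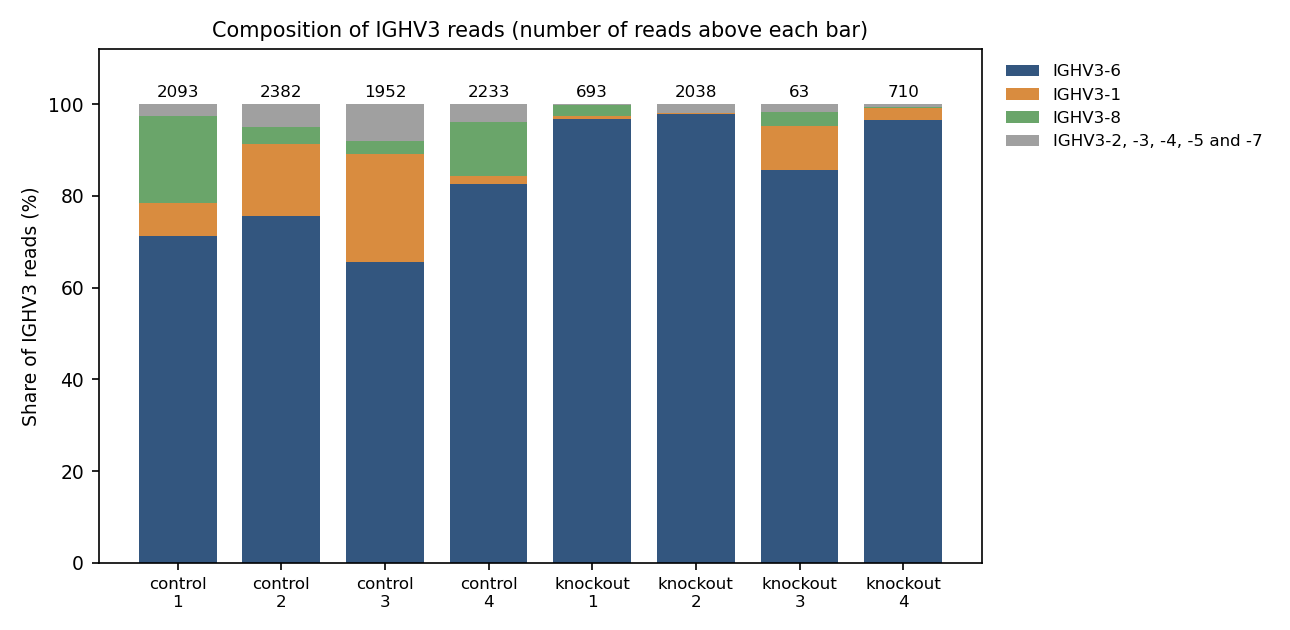
Stacked bars give the share of IGHV3 reads (%) taken by IGHV3-6, IGHV3-1, IGHV3-8 and the other 5 members in each of the 4 control and 4 Setd2 knockout samples, with the number of IGHV3 reads above each bar. IGHV3-6 takes 65.6% to 82.6% in controls and 85.7% to 97.8% in knockouts, and the knockout 3 bar rests on 63 reads.

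IGHV3-6 itself, measured against all VH reads, overlapped between the genotypes. Its share of VH reads was 3.82%, 3.40%, 3.61% and 4.08% in controls 1 to 4. In knockouts it was 2.63%, 8.91%, 3.30% and 1.21%. Knockout 2 was the highest of the 8 samples and knockout 4 the lowest, so the spread between knockouts exceeded the difference of means, 3.73% ± 0.292 against 4.01% ± 3.38 (SD, n = 4 each). Knockout 2 alone held 1994 of the 3405 IGHV3-6 reads of the knockouts.

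The IGHV3 genes other than IGHV3-6 were together lower in every knockout. Controls held 2241 such reads of 172852 VH reads and knockouts 99 of 106081. The mean per-sample share was 1.35% ± 0.460 in controls and 0.219% ± 0.230 in knockouts (SD, n = 4 each), 6.15 times lower in knockouts. Leaving out 1 sample at a time, it was 4.85 times lower (without knockout 4) to 12.4 times lower (without knockout 3, which had 9 such reads). The difference of -1.13 percentage points had an exact permutation p of 0.0286 (0.0857 adjusted over the 6 readouts), and it was -1.29 to -0.945 when any 1 sample was left out, with p = 0.0571 without knockout 1, 2 or 4. This sum was added after the data had been seen and uses the same reads as the IGHV3-6 share, so it is no second support for it.

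IGHV3-1 and IGHV3-8 held most of the reads outside IGHV3-6. IGHV3-1, the member nearest the D segments, had 150, 371, 460 and 42 reads over the 4 controls, and 4, 3, 6 and 18 over the 4 knockouts. As shares of VH reads these were 0.384%, 0.699%, 1.30% and 0.0928% against 0.0157%, 0.0134%, 0.367% and 0.0318%. The groups overlapped, because the 6 reads of the shallow knockout 3 make a larger share than the 42 reads of control 4. Knockouts 1, 2 and 4 were below every control.

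IGHV3-8, the member farthest from the D segments, had 399, 92, 54 and 260 reads in controls and 17, 0, 2 and 2 in knockouts. Its shares of VH reads were 1.02%, 0.173%, 0.152% and 0.575% against 0.0666%, 0%, 0.122% and 0.00354%. Every knockout was below every control, with means of 0.481% ± 0.410 and 0.0481% ± 0.0581 (SD, n = 4 each). The 2 reads of knockout 3 have a 95% Wilson interval of 0.0335% to 0.444%, which includes the levels of controls 2 and 3. Control levels varied widely for both genes, and the controls highest for IGHV3-1 were not those highest for IGHV3-8. Control 3 led for IGHV3-1 and was lowest for IGHV3-8.

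The 3 rarer genes not annotated as pseudogenes, IGHV3-3, IGHV3-4 and IGHV3-5, were close to undetected in knockouts. IGHV3-4 had 0 reads in each knockout, beside 4, 18, 37 and 2 reads in the controls. With 3 reads over the knockouts as the limit a count of 0 allows, its pooled share was at least 12.5-fold lower. Control 3 gave 37 of the 61 control reads, and the bound was 6.18-fold without control 3 and 5.83-fold without knockout 4. IGHV3-5 had 5, 23, 4 and 49 reads in controls and 2 reads in knockouts, both in knockout 2, and its pooled knockout-to-control ratio was 0.0402 (exact counting interval 0.00479 to 0.150). That ratio was 0.0752 without control 4 and 0.0862 without knockout 4. IGHV3-3 had 7, 1, 5 and 8 reads in controls and 1 read in knockouts, in knockout 4, with a ratio of 0.0776 (0.00188 to 0.482). The share of that read in knockout 4 lay just under the share of the single read in control 2. For all 3 genes every knockout share was below every control share, but every control share lay under the 0.183% that 3 reads make in knockout 3, so a difference was not detectable in that sample.

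The pseudogenes overlapped between the genotypes. IGHV3-2 had 35, 72, 108 and 28 reads in controls and 1, 26, 1 and 3 in knockouts. Its overlap came from knockout 2 alone, at 0.116% of VH reads beside 0.0619% in control 4. Knockout 3, at 0.0611% from 1 read, lay just under control 4. IGHV3-7 had 1, 3, 3 and 0 reads in controls and 0, 13, 0 and 0 in knockouts. Its higher knockout mean came from knockout 2 alone. Without both pseudogenes, an alternative chosen after seeing the data, the IGHV3-6 share of IGHV3 reads differed by 19.2 percentage points (exact permutation p = 0.0286).

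**Figure D2:**
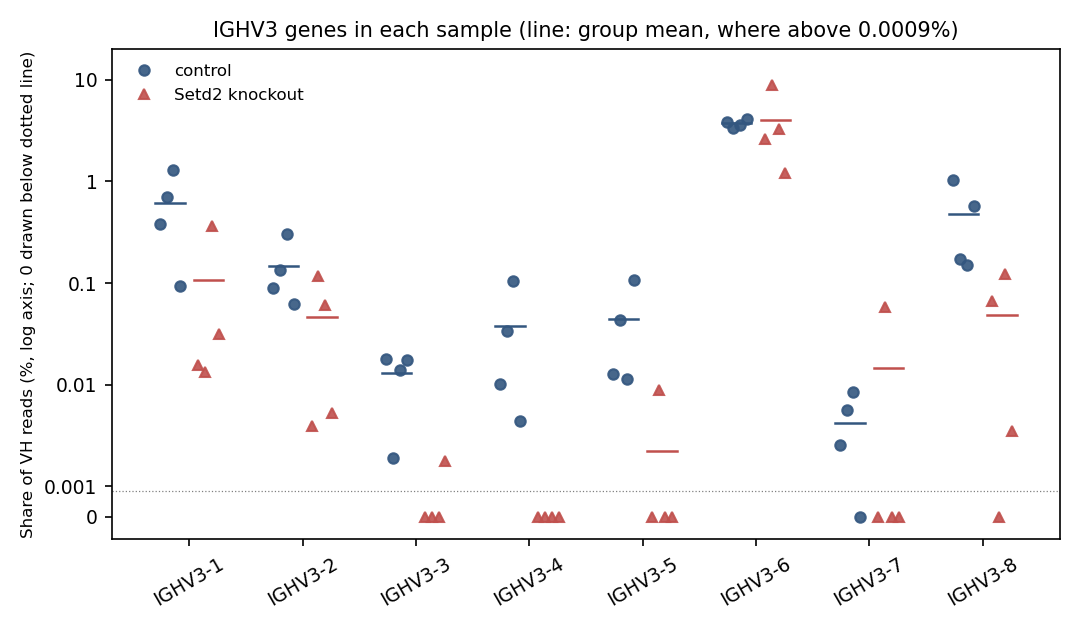
Each point is 1 sample, and its height is the share of VH reads (%, log axis) of 1 IGHV3 gene in controls (circles) and Setd2 knockouts (triangles), with shares of 0 drawn below the dotted line and group means as short lines. All 4 knockouts sit at 0 for IGHV3-4 and lie below every control for IGHV3-3, IGHV3-5 and IGHV3-8, while the IGHV3-6 points of both groups overlap around means of 3.73% and 4.01%.

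The members were then read from a fit over all VH genes. Counts were compared with edgeR's quasi-likelihood test over the 130 VH genes with at least 10 reads, with VH reads as library size, and all 8 members passed this filter. The filter summed reads over both groups. IGHV3-3, IGHV3-4 and IGHV3-5, with 1, 0 and 2 knockout reads, passed through their control reads alone. They are among the members counted as lower below, so those counts are a description. IGHV3-7, with 7 control and 13 knockout reads, passed through its knockout reads. No gene had a Benjamini-Hochberg adjusted p under 0.05 (0 of 130, 0%), so 0 of 8 IGHV3 genes were called. At an unadjusted p under 0.05, 5 of 8 IGHV3 genes were lower and 0 higher in knockouts, beside 26.2% of all tested VH genes lower. Every knockout was below every control for 4 of 8 members, beside 24.6% of all tested genes. DESeq2 called 6 of the 130 genes (4.62%) and 0 of 8 members, 2 of which had no adjusted p. At an unadjusted p under 0.05, 4 of 8 members were lower with DESeq2, beside 10% of all tested genes (13 lower, 17 higher). With edgeR and TMM scaling, explained below, 4 of 8 were lower beside 8.46% of all tested genes (11 lower, 14 higher).

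IGHV3-8 had a log2 fold change of -3.89 (SE 1.28, edgeR's quasi-likelihood test, adjusted p = 0.0831) and IGHV3-1 one of -3.21 (SE 1.22, adjusted p = 0.118). Each SE given here is the absolute fold change divided by the square root of the test's F statistic, so it is approximate. IGHV3-5 had the same edgeR adjusted p as IGHV3-8, IGHV3-3 had that of IGHV3-1, and IGHV3-4 had the lowest of the family, 0.0720. IGHV3-2 had a log2 fold change of -1.78 (SE 1.05, edgeR adjusted p = 0.280). IGHV3-6 had one of 0.11 (SE 0.71, edgeR adjusted p = 0.939), and it turned to -0.65 without knockout 2. IGHV3-7 had 1.95 (SE 1.41, edgeR adjusted p = 0.383), from the reads of knockout 2. In this fit 5 genes had a p under 0.05 before adjustment: IGHV3-1, IGHV3-3, IGHV3-4, IGHV3-5 and IGHV3-8. All 5 were annotated as V genes, and neither IGHV3-6 nor a pseudogene was among them. The contrast with the pseudogenes did not hold in every setting. Without knockout 2, IGHV3-2 was at -4.19 (edgeR unadjusted p = 0.00442, adjusted p = 0.0572). A fit blocked by replicate number, described below, gave IGHV3-2 -2.47 (edgeR unadjusted p = 0.0206, adjusted p = 0.128). There IGHV3-3 had an unadjusted p of 0.0526.

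These fold changes depend on the scaling, which shifts all genes together. The median log2 fold change of all tested VH genes was -0.82 by VH reads and 0.18 with TMM scaling, a normalization that sets most genes to no change. The median of the 8 IGHV3 genes was -3.33 by VH reads and -2.27 with TMM. DESeq2's size factors gave -1.94, beside 0.20 for all genes. These medians include IGHV3-3, IGHV3-4 and IGHV3-5, with 1, 0 and 2 knockout reads, which passed the filter through control reads alone. By VH reads the median lay between IGHV3-1 at -3.21 and IGHV3-3 at -3.45. The medians of the IGHV3 genes are therefore a description. IGHV3-8 was at -3.06 and IGHV3-1 at -2.33 with TMM, and IGHV3-6 at 0.98. The 6 members below 0 by VH reads were below 0 with each scaling. Fitted values of genes at 0 reads in the knockouts depend on the prior count and bound nothing.

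Among the settings that took the samples as unpaired, IGHV3-4 passed the edgeR threshold when genes with fewer than 10 reads were also kept (adjusted p = 0.0372, beside 6 of 159 genes called, 3.77%). It also passed when control 4 was left out (edgeR adjusted p = 0.0494, beside 5 of 125 genes, 4%).

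The place of the family in the locus was compared with its neighbours. Between IGHV3-1 and IGHV3-8 lay 15 other VH genes with reads, from 8 families, of which 12 entered the fit. Their median log2 fold change was -0.91, close to the -0.82 of all tested genes, with 2 of 12 lower at an unadjusted p under 0.05 and 3 of 12 lower in every knockout than in every control. Their summed share of VH reads was 10.4% ± 1.71 in controls and 6.32% ± 3.16 in knockouts (SD, n = 4 each). IGHV3-6, at 806.0 kb from IGHD1-1, lay between IGHV3-5 at 780.5 kb and IGHV3-7 at 832.0 kb. Its fold change of 0.11 stood beside a lower value for IGHV3-5 and a higher value for IGHV3-7. Between IGHV3-6 and IGHV3-7 lay IGHV9-4, at 817.8 kb, with a log2 fold change of 0.003. Whether IGHV3 genes differ from these neighbours as a group was not tested.

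**Figure D3:**
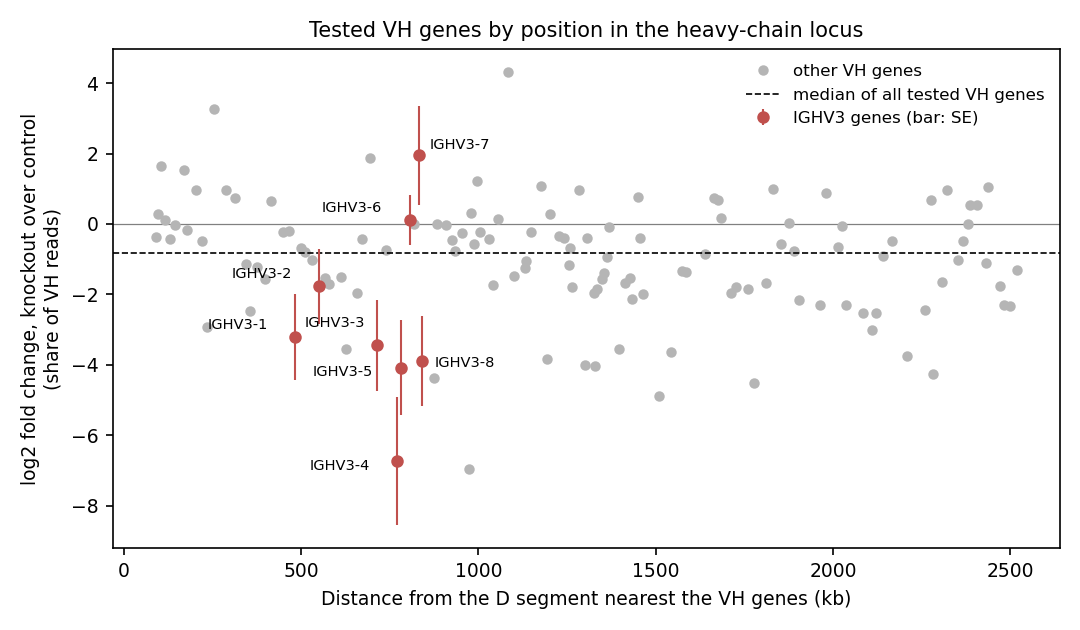
The log2 fold change of the share of VH reads, knockout over control, is plotted against the distance (kb) from the nearest D segment for the 130 tested VH genes, with IGHV3 genes in red and bars of 1 SE. The dashed line is the median of all tested genes, -0.82. IGHV3-1, IGHV3-2, IGHV3-3, IGHV3-4, IGHV3-5 and IGHV3-8 lie below it, and IGHV3-6 at 0.11 and IGHV3-7 at 1.95 lie above it. The SE is the absolute fold change divided by the square root of the F statistic. The IGHV3-4 value and its bar come from 0 knockout reads and depend on the prior count.

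The share of the leading gene, chosen by control reads, was also computed for other families as a description. Among 9 families with at least 4 genes and reads in every sample, IGHV3 was the 1 whose leading gene took a higher share in every knockout than in every control. The mean share of the leading gene was higher in knockouts in 4 of the 9. The choice by control reads can lower the knockout share in families where another gene led in knockouts. In the IGHV5 family the chosen gene was IGHV5-6, while IGHV5-9-1 took 27.6% of VH reads in knockout 4. The comparison therefore does not show that IGHV3 differs from the other families.

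Contigs gave 7, 14, 9 and 13 IGHV3 clonotypes for controls 1 to 4, and 3, 3, 1 and 1 for knockouts 1 to 4. The clonotypes of a single V family numbered 606, 581, 511 and 609 in controls and 136, 192, 51 and 181 in knockouts. The IGHV3 share was therefore 1.16%, 2.41%, 1.76% and 2.13% in controls and 2.21%, 1.56%, 1.96% and 0.552% in knockouts. The groups overlapped, at 1.87% ± 0.543 and 1.57% ± 0.729 (SD, n = 4 each, exact permutation p = 0.543). With a single IGHV3 clonotype the 95% Wilson interval of knockout 3 ran from 0.347% to 10.3%, so the share in that sample is poorly known. Counted instead as clonotypes with at least 1 listed IGHV3 gene, of those with any V gene listed, the share was 8.33%, 9.05%, 7.21% and 8.42% in the controls. In knockouts 1 to 4 it was 8.38%, 6.93%, 1.52% and 2.90%, with knockouts 2, 3 and 4 below every control and knockout 1 among them. The means of this wider count were 8.25% and 4.93%, a difference of -3.32 percentage points (exact permutation p = 0.0857).

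The V gene of an assembled contig was often not resolved. Of the 51 IGHV3 clonotypes, 23 listed IGHV3-1 and IGHV3-6 together. Contigs reached 17 to 70 bases upstream of the cysteine codon, with a median of 45, and IGHV3-1 and IGHV3-6 are identical over the nearest 48. Compared base by base with the 8 germline genes, 11 of 43 control and 6 of 8 knockout clonotypes were closest to IGHV3-6 alone, and 0 were closest to IGHV3-1 alone. A single other member was closest for 9 control and 0 knockout clonotypes, and 23 control and 2 knockout clonotypes tied between members. Among clonotypes listing only IGHV3-1 and IGHV3-6, 9 of 18 in controls and 4 of 5 in knockouts reached beyond the identical bases. All of those were closest to IGHV3-6. The counts by group therefore depend on contig reach, are pooled over samples and were not tested. Some contigs listed IGHV3S1 or IGHV3S7, names with no position in the annotation used here. Of 15 clonotypes listing 1 of the 8 genes, 2 had another member as the closest. A further 199 control and 30 knockout clonotypes listed IGHV3 beside other families.

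The 8 knockout clonotypes are few enough to be printed. The sequences run 5′ to 3′ from the cysteine codon to the tryptophan codon that close the CDR3, each with its sample, listed J gene and contig reads.
Knockout 1, IGHJ3, 7 reads: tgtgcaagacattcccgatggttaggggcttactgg
Knockout 1, IGHJ3, 3 reads: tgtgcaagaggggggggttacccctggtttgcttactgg
Knockout 1, no J listed, 1 read: tgtgcaagagactgggactttgactactgg
Knockout 2, IGHJ3, 22 reads: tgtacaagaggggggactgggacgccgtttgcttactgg
Knockout 2, IGHJ4, 5 reads: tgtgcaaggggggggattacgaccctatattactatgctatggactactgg
Knockout 2, IGHJ3, 5 reads: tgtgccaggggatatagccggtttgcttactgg
Knockout 3, IGHJ2, 2 reads: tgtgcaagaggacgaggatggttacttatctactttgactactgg
Knockout 4, IGHJ2, 22 reads: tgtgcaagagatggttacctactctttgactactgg

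The germline start tgtgcaaga, the end of most members printed above, opened 30 of 43 control and 5 of 8 knockout CDR3 sequences. The most read IGHV3 clonotypes, with 22 contig reads each, were in knockouts 2 and 4, were closest to IGHV3-6 alone, and differed from it at 1 base upstream of the CDR3. No control IGHV3 clonotype had over 10 contig reads. No CDR3 sequence was shared between samples. Of 167 pairs of IGHV3 CDR3 sequences of equal length, 2 differed at 4 bases or fewer, shown with the differing bases in capitals. The first pair, from control 2, differed at 2 bases, with 10 and 2 contig reads, and the second, from controls 1 and 4, differed at 4 bases.
Control 2, 10 reads: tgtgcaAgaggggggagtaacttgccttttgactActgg
Control 2, 2 reads: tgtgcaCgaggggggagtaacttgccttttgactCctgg
Control 1, 4 reads: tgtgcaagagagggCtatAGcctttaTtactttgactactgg
Control 4, 1 read: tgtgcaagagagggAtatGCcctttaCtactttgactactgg

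A J gene was listed for 22 control and 7 knockout IGHV3 clonotypes. In controls these were 3 with IGHJ1, 10 with IGHJ2, 4 with IGHJ3 and 5 with IGHJ4. In knockouts they were 0, 2, 4 and 1. A constant gene was listed for 15 IGHV3 clonotypes, 12 in controls and 3 in knockouts, and it was IGHA, a switched isotype, in all 15. The share of IGHA among constant genes listed for other families is not given here. The count is therefore not a result about IGHV3. The J counts are too few for a comparison over samples.

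CDR3 lengths of IGHV3 clonotypes, counted in codons with the cysteine and tryptophan included, averaged 11.9, 12, 12.8 and 12.2 in controls 1 to 4. In knockouts 1 to 4 they averaged 11.7, 13.7, 15 and 12, the last 2 from 1 clonotype each. The group means of 12.2 ± 0.405 and 13.1 ± 1.55 codons (SD, n = 4 each) did not separate (exact permutation p = 0.40). Compared with clonotypes of other families in the same sample, IGHV3 CDR3 sequences were shorter on average in 6 of 8 samples, in every control and in knockouts 1 and 4. The mean within-sample difference was -0.741 codons (two-sided exact sign-flip permutation test over 256 arrangements, p = 0.164). It was -1.12 without knockout 3 (exact sign-flip p = 0.0313) and -0.593 without knockout 4 (exact sign-flip p = 0.281). The values of both samples rest on 1 clonotype each. Leaving out any other sample gave an exact sign-flip p of 0.156 to 0.328. This comparison was added after the data had been seen.

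**Figure D4:**
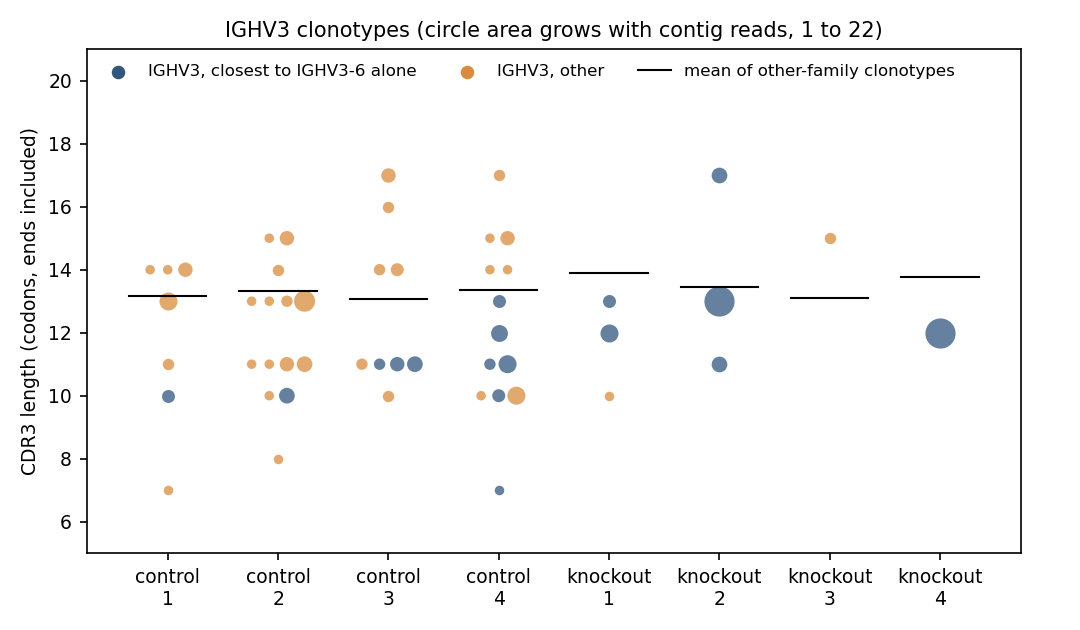
Each circle is 1 IGHV3 clonotype, placed by its CDR3 length (codons, vertical axis) and sample, with an area that grows with its contig reads, in blue where IGHV3-6 alone is the closest germline gene. Black lines are the mean length of clonotypes of other families in that sample. Controls hold 43 circles of at most 10 reads, of which 11 are blue. Knockouts hold 8, of which 6 are blue and 2 have 22 reads. Whether a circle is blue also depends on how far its contig reaches upstream of the CDR3.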

How the data were processed

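Reads from poly-A libraries of 8 samples (4 control, 4 Setd2 knockout) were processed with STAR 2.5.1 on mm10, as the submitters' processing notes list them. The series design text names TRUST, a repertoire assembler, without a version in the sources used here. The read counts per segment and per contig were deposited by the authors as whole numbers without normalization. Light-chain tables were not used here.

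Counts per VH gene were tested by quasi-likelihood in edgeR 4.0.16 under R 4.3.3 (VH reads as library size, at least 10 reads per gene, Benjamini-Hochberg adjusted p under 0.05), with DESeq2 1.42.0 and TMM as alternatives. On simulated VH counts of 159 genes, 89.5% of 16-fold and 29.6% of 4-fold decreases and 0.436% of unchanged genes were called. The simulation drew from control shares with a fixed dispersion, the same for every gene and both groups. It did not model the wider spread between the knockouts, so these rates do not give the power for these data. Per-sample shares and lengths were compared by two-sided exact permutation tests over 70 arrangements. Python 3.11.15, numpy 2.4.6, pandas 2.3.3, scipy 1.17.1, biopython 1.88 and matplotlib 3.10.9 were used. Germline sequences came from GENCODE M21 transcripts. VH reads per sample were 1637 to 56542, which sets the counting error of each share.

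Named genes were all IGHV3 members and the 3 VH genes of at least 100 reads that ranked most like the family over samples. The members and lists were chosen with earlier results of these data known.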

Additional observations from a re-analysis of the deposited data

Results flagged for a closer look

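Of 38 groups of 4 values looked at for IGHV3 genes and clonotypes, 8 held a sample far from the other 3. For values without ties chance gives about 1 in 20 such groups, a rate that does not apply to the 6 of the 8 described last, where 3 samples were at 0. Knockout 3, the shallowest sample, stood apart for the IGHV3-6 share of IGHV3 reads, at 85.7% beside 96.6% to 97.8% in the other knockouts, and for IGHV3-1, at 0.367% of VH reads beside 0.0134% to 0.0318%. In the other 6 cases a single knockout held all the reads of a member and the other 3 were at 0, so the gap is the whole range by construction, and the 6 are 3 genes, each given as a share of VH reads and of IGHV3 reads. IGHV3-3 was at 0.00177% of VH reads and 0.141% of IGHV3 reads in knockout 4. IGHV3-5 was at 0.00894% and 0.0981% in knockout 2, and IGHV3-7 at 0.0581% and 0.638% in knockout 2.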

How the results depend on the processing

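Of 78 recomputed values of the readouts, 59 kept their direction and their side of the threshold, as did 87 of 95 recomputed fold changes of single members. Leaving out 1 sample at a time gave -2.46 to 0.154 percentage points for the family share, 17.7 to 23.4 for the IGHV3-6 share of IGHV3 reads, -1.29 to -0.945 for the other IGHV3 reads, -0.531 to 0.0446 for the clonotype share, 0.228 to 1.34 codons for CDR3 length, -1.12 to -0.527 codons for the difference from other families, and 0 to 1 called members. The clonotype share differed by 0.305 percentage points when contig reads replaced clonotypes, and CDR3 length by -0.00803 codons with at least 1 listed IGHV3 gene. Without a filter on low counts 1 member was called, beside 3.77% of VH genes. Samples with the same replicate number had correlations of -0.05 to 0.10 over 4 pairs, close to 0. Even so, 3 of 4 controls were most like the knockout of their number. The labels do not say whether equal numbers share a batch, so pairing is not settled. With the replicate number as a block the smallest possible permutation p is 0.125. That was the value for the IGHV3-6 share (20.5 percentage points) and for the other IGHV3 reads (-1.13). The edgeR fit with this block called 4 members lower, beside 11.5% of all tested VH genes. Its adjusted p was 0.00446 for IGHV3-8, 0.0222 for IGHV3-1 and 0.0487 for both IGHV3-4 and IGHV3-5. In the same fit IGHV3-6 turned to -0.27 on the log2 scale. Leaving out 1 sample at a time gave it -0.65 (without knockout 2) to 0.41. The cause of these changes was not tested. Alternatives for the other IGHV3 reads, the pseudogenes and the difference from other families were chosen after seeing the data. The 1637 VH reads of knockout 3 limit every value that rests on it.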

Other observations

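Outside the family, the 3 VH genes whose share of VH reads ranked most like the IGHV3 share over the 8 samples, among 94 genes ranked, were IGHV1-5 (Spearman rho 0.95), IGHV14-2 (0.88) and IGHV9-4 (0.86). All samples share the VH total as denominator, so these values are a description. The IGHV14-2 share was 3.30% ± 0.782 for controls and 1.92% ± 1.25 for knockouts (SD, n = 4 each). IGHV9-4 and IGHV14-2 lie between IGHV3-1 and IGHV3-8, and IGHV1-5 lies beyond IGHV3-8 on the D-distal side.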
